A study of Triticum dicoccoides with 12 samples.

Results

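Some root transcripts of wild emmer wheat lay at the background of the array while plants were watered and reached clear signal after water was withheld, in both genotypes studied. They were chosen as probe sets whose mean over 3 arrays was under -0.15 in both well-watered groups and at or above 1 in both water-stressed groups. Each probe set sums up several short oligonucleotides that target 1 transcript or several similar ones, and array controls were left out. The members were thus selected on their group means, the same values that give their stress response. Of 61115 probe sets, 89 met this rule. The first condition alone was met by 35874 probe sets and the second alone by 6071.

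Wild emmer wheat (Triticum turgidum subsp. dicoccoides) is the wild tetraploid ancestor of cultivated wheats. Biotin-labelled RNA prepared from total root RNA was measured on single-colour Affymetrix arrays designed for bread wheat. The 12 arrays held 3 each of stressed Y12-3, well-watered Y12-3, stressed A24-39 and well-watered A24-39. In work on this species, Y12-3 is the drought-resistant and A24-39 the drought-susceptible genotype. All plants were 4 weeks old, from a greenhouse, and the stressed groups had gone 7 days without water from the stage of 4 leaves. The labels call the arrays biological replicates, and they leave unsaid if RNA was taken from single or pooled plants.

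Drying soil is sensed by the root, where water deficit raises the plant hormone abscisic acid and lowers cell turgor. Abscisic acid acts through receptors that release protein kinases from inhibition, and these kinases activate transcription factors. Known targets in plants include dehydrins and other late embryogenesis abundant proteins, enzymes that make compatible solutes, protein phosphatases that feed back on the hormone signal, and lipid transfer proteins. Many such transcripts are scarce in watered vegetative tissue and abundant in drying tissue and in seeds. Which of the 89 probe sets belong to such families is not known here: 9 of them carry 1 gene symbol (8 distinct symbols), all placeholders with no description, and 80 carry none. Over the whole array 1273 tested probe sets carry 1 symbol. None of the members' gene identifiers was found in the RefSeq gene table of the assembly WEW_v2.1, so no role or position is given.

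Values are a deposited score, 1 per probe set and array, which behaves like a logarithm of signal. The sources used here give neither its base nor any later scaling, so differences are in score units and no ratio is given. The array holds 23 controls with no wheat target, of which the highest had a mean of -0.15 over the 12 arrays, and a score at or under that level is read as background. Between 33.0% and 47.8% of the tested probe sets lay above the brightest such control of their array. No pair of arrays was identical. In RNA from whole roots, more RNA per cell and more cells of a type cannot be told apart. The labelled tissue could not be checked against root markers, since 0 of the 6 symbols listed matched the array. Of 4 probe sets for the shoot genes FBP and petC, 3 had all 4 group means at background.

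Because the rule used the stress contrast, the members' stress differences describe how they were chosen and carry no test. The members' means were 1.15 to 4.72 in stressed Y12-3 (median 2.56) and lay at a median of -0.43 in well-watered Y12-3. In A24-39 they were 1.01 to 4.77 in stressed roots (median 2.33), with a median of -0.42 in well-watered roots. All well-watered means were between -0.69 and -0.17, below the highest mean of a control with no wheat target. The stressed members thus covered a wide range of levels, while the well-watered members lay together at background. By their mean over the 6 stressed arrays, 34 members were at 3 or more, 23 were between 2 and 3, and 32 were under 2.

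Since the well-watered signal was background, each difference is a lower bound, taken from the brightest control of each well-watered array wherever the member was dimmer than it. On this bound, members were higher under stress by at least 1.33 to 4.90 in Y12-3 (median 2.74) and by at least 1.11 to 4.87 in A24-39 (median 2.44). The plain difference of means had a median of 3.07 in Y12-3 and 2.81 in A24-39. Over all tested probe sets, that median was -0.01 in Y12-3 and 0.02 in A24-39.

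Every stressed array held all 89 members above its brightest control with no wheat target, and the well-watered arrays held 0 to 11 of them above it. The members' median score was 1.90 to 2.90 on the stressed arrays and -0.51 to -0.41 on the well-watered arrays. It lay at the 95.45 to 98.49 percentile of the stressed arrays and at the 30.53 to 42.14 percentile of the well-watered arrays. Among the brightest 1% of probe sets of an array (611 probe sets) were 40, 19 and 41 members in stressed Y12-3 and 23, 17 and 36 in stressed A24-39, against 0 on every well-watered array. Several members were therefore among the brightest signals of a stressed root. For each of the 89 members, the lowest of the 6 stressed arrays was above the highest of the 6 well-watered arrays, by 0.72 or more. The rule took means, and 71 members were at or above 1 on all 6 stressed arrays, 76 were under -0.15 on all 6 well-watered arrays, and 59 did both.

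The highest stressed levels were those of 2 probe sets without a symbol. Ta.14617.1.S1_at scored 4.60, 4.37 and 4.64 on the stressed Y12-3 arrays, against -0.37, -0.24 and -0.46 on the well-watered Y12-3 arrays, and 4.67, 4.64 and 4.99 on the stressed A24-39 arrays, against -0.41, -0.25 and -0.40 on the well-watered A24-39 arrays. Its stressed arrays lay close together within each genotype, far from the watered arrays, and it was higher under stress by at least 4.72 in Y12-3 and at least 4.87 in A24-39. Ta.2638.1.S1_at scored 4.88, 4.38 and 4.89 on the stressed Y12-3 arrays, against -0.44, -0.44 and -0.55 on the well-watered Y12-3 arrays, and 4.35, 3.65 and 4.995 on the stressed A24-39 arrays, against -0.52, -0.38 and -0.51 on the well-watered A24-39 arrays. Its bound was 4.90 in Y12-3 and 4.43 in A24-39, and its stressed A24-39 arrays were more spread (SD 0.67, n = 3) than its stressed Y12-3 arrays (0.29). Ta.9389.1.S1_at reached 4.36 ± 0.45 in stressed Y12-3 and 4.50 ± 0.59 in stressed A24-39 (SD, n = 3 each), and Ta.25026.1.S1_at reached 4.26 ± 0.44 and 4.27 ± 0.51 in the same groups. The other 6 of the 10 brightest were Ta.13183.1.S1_x_at (LOC542799), Ta.6219.2.S1_at, Ta.5888.1.S1_s_at, Ta.9389.1.S1_x_at, Ta.6146.1.S1_at and Ta.20582.1.S1_x_at. Their means lay between 3.53 and 3.96 in stressed Y12-3 and between 3.86 and 4.41 in stressed A24-39.

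At the dim end, Ta.13385.1.S1_at scored 1.43, 0.72 and 1.31 on the stressed Y12-3 arrays, against -0.42, -0.35 and -0.41 on the well-watered Y12-3 arrays, and 0.90, 0.73 and 1.43 on the stressed A24-39 arrays, against -0.52, -0.47 and -0.39 on the well-watered A24-39 arrays. Both stressed groups were clear of their watered groups, with 1 stressed Y12-3 array and 2 stressed A24-39 arrays under 1. Ta.5814.1.S1_at (1.24 in stressed Y12-3 and 1.02 in stressed A24-39), Ta.22349.1.S1_at (1.29 and 1.19), Ta.5978.2.A1_at (1.38 and 1.16) and Ta.14366.2.S1_a_at (1.38 and 1.17) were the next dimmest means.

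The thresholds cut a continuous range. Just inside the watered threshold were Ta.25026.1.S1_at, Ta.1930.1.S1_x_at and Ta.24294.1.A1_at, with highest watered means of -0.17 each. Just outside it were Ta.5913.1.S1_at (-0.15), Ta.14510.1.S1_at (-0.15) and Ta.2551.1.S1_at (-0.14). Just inside the stressed threshold were TaAffx.129494.1.S1_at (lowest stressed mean 1.01), Ta.13385.1.S1_at (1.02) and Ta.5814.1.S1_at (1.02), and just outside it were Ta.5904.1.S1_at (0.99), Ta.1583.1.S1_at (0.98) and Ta.5926.1.S1_at (0.96). Probe sets on either side of a threshold differed by less than the members' median SD over 3 arrays, which was 0.42 in stressed Y12-3, 0.06 in well-watered Y12-3, 0.48 in stressed A24-39 and 0.05 in well-watered A24-39.

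Among the members with a symbol, LOC542799 and LOC542888 were brightest. On Ta.13183.1.S1_x_at, LOC542799 scored 4.03, 3.26 and 4.08 on the stressed Y12-3 arrays, against -0.33, -0.21 and -0.26 on the well-watered Y12-3 arrays, and 4.43, 4.01 and 4.79 on the stressed A24-39 arrays, against -0.09, -0.30 and -0.33 on the well-watered A24-39 arrays. It was higher under stress by at least 3.97 in Y12-3 and at least 4.49 in A24-39. Its other probe set, Ta.13183.1.S1_s_at, missed the rule through a mean of -0.08 in well-watered A24-39 and had 3.54 in stressed Y12-3, -0.20 in well-watered Y12-3 and 4.74 in stressed A24-39. Both probe sets of this gene were bright under stress.

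LOC542888 had 2 member probe sets, and they put the genotypes in opposite order. On Ta.13255.1.S1_at it scored 3.65, 3.31 and 3.72 on the stressed Y12-3 arrays, against -0.52, -0.50 and -0.63 on the well-watered Y12-3 arrays, and 4.04, 3.84 and 4.27 on the stressed A24-39 arrays, against -0.63, -0.40 and -0.60 on the well-watered A24-39 arrays. On Ta.2787.1.S1_at it scored 3.62, 2.97 and 3.77 on the stressed Y12-3 arrays, against -0.48, -0.44 and -0.53 on the well-watered Y12-3 arrays, and 2.82, 2.75 and 3.65 on the stressed A24-39 arrays, against -0.44, -0.39 and -0.42 on the well-watered A24-39 arrays. Stressed Y12-3 minus stressed A24-39 was -0.49 ± 0.12 on the first (SE; limma adjusted p = 0.0352, lost under several of the alternatives given below) and 0.38 ± 0.24 on the second (SE; limma adjusted p = 0.342), so only the first passed the threshold.

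LOC542804 and LOC543084 had nearly the same stressed levels in both genotypes. LOC542804 (Ta.28605.1.S1_at) scored 3.95, 3.17 and 3.67 on the stressed Y12-3 arrays, against -0.27, -0.36 and -0.67 on the well-watered Y12-3 arrays, and 3.81, 3.02 and 3.83 on the stressed A24-39 arrays, against -0.32, -0.58 and -0.56 on the well-watered A24-39 arrays. LOC543084 (Ta.727.1.S1_x_at) scored 3.78, 3.18 and 3.63 on the stressed Y12-3 arrays, against -0.31, -0.37 and -0.41 on the well-watered Y12-3 arrays, and 3.60, 3.22 and 3.87 on the stressed A24-39 arrays, against -0.41, -0.45 and -0.54 on the well-watered A24-39 arrays. For each, the stressed arrays of the genotypes overlapped, and stressed Y12-3 minus stressed A24-39 was 0.04 ± 0.24 for LOC542804 and -0.04 ± 0.17 for LOC543084 (SE), neither past the threshold.

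LOC543293 (TaAffx.46097.2.S1_at) scored 3.59, 2.83 and 3.46 on the stressed Y12-3 arrays, against -0.60, -0.56 and -0.69 on the well-watered Y12-3 arrays, and 3.01, 2.02 and 3.13 on the stressed A24-39 arrays, against -0.63, -0.58 and -0.67 on the well-watered A24-39 arrays. Its means were 3.29 ± 0.41 in stressed Y12-3 and 2.72 ± 0.61 in stressed A24-39 (SD, n = 3 each), with overlapping arrays. The gene's other probe sets, Ta.2704.1.S1_at and Ta.2704.1.S1_x_at, were not members because watered roots already had signal (0.20 to 0.51). Those probe sets had higher means in stressed A24-39 (4.82 and 4.94) than in stressed Y12-3 (4.05 and 4.24), the opposite order to the member.

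LOC543108 (Ta.14503.1.S1_at) scored 3.14, 1.67 and 3.31 on the stressed Y12-3 arrays, against -0.38, -0.37 and -0.35 on the well-watered Y12-3 arrays, and 1.65, 1.74 and 2.79 on the stressed A24-39 arrays, against -0.39, -0.36 and -0.29 on the well-watered A24-39 arrays. Its SD of 0.90 in stressed Y12-3 was the largest of any member in that group. Its second probe set, Ta.24688.2.S1_a_at, stayed at background in all groups (means -0.42 to -0.37), so the gene's signal under stress rests on 1 probe set. LOC100125736 (Ta.23679.1.S1_at) scored 2.23, 1.32 and 2.16 on the stressed Y12-3 arrays, against -0.33, -0.25 and -0.24 on the well-watered Y12-3 arrays, and 1.44, 1.03 and 2.11 on the stressed A24-39 arrays, against -0.31, -0.35 and -0.24 on the well-watered A24-39 arrays. LOC100037555 (Ta.14366.2.S1_a_at) scored 1.74, 0.89 and 1.504 on the stressed Y12-3 arrays, against -0.32, -0.20 and -0.29 on the well-watered Y12-3 arrays, and 1.15, 0.91 and 1.43 on the stressed A24-39 arrays, against -0.28, -0.34 and -0.29 on the well-watered A24-39 arrays. These were the dimmest members with a symbol, and in both the second stressed array of each genotype was the lowest.

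The stressed arrays were not alike within a group. The members' median was 2.72, 2.09 and 2.85 on the 3 stressed Y12-3 arrays and 2.23, 1.90 and 2.90 on the 3 stressed A24-39 arrays. In stressed Y12-3, 88 of 89 members (98.9%) were lowest on array 2, and in stressed A24-39 85 of 89 (95.5%) were. Array 2 differed from the mean of the other arrays by a median of -0.70 in Y12-3 and -0.61 in A24-39, while over all tested probe sets the medians were -0.01 in Y12-3 and -0.005 in A24-39, and 40.6% and 35.1% were lowest on array 2. A member that is bright under stress was thus almost always dimmest on the second array of either genotype.

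The same order was counted among probe sets outside the rule. Of the 2553 other probe sets that limma called higher under stress in both genotypes, 65.4% were lowest on array 2 in stressed Y12-3 and 47.4% in stressed A24-39. Of the 2565 called lower in both, 57.6% in Y12-3 and 44.9% in A24-39 were highest on array 2, against 30.5% and 30.6% of all tested. After rescaling each array by its spike-in controls, 88 members in Y12-3 and 79 in A24-39 were lowest on array 2, and after quantile normalization 88 and 84 were. On these arrays the mean of the spike-in controls was 1.20, 1.08 and 1.15 in stressed Y12-3 and 1.27, 1.14 and 1.31 in stressed A24-39, also lowest on array 2. The 3′ minus 5′ difference of the spike-in transcript dap was 0.73 to 1.20 on stressed and 0.85 to 1.62 on watered arrays. The part of these differences between arrays in the members' levels was not tested.

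The rule set a floor for both stressed means and not for their difference, so single members were compared between the genotypes under stress with limma. The floor left out probe sets that were bright in 1 genotype only, so the members' counts are shaped by the rule, and nothing is read from them against all tested probe sets. limma called 8 of the 89 members (8.99%), where it called 8.47% of all tested probe sets. Of the 8, 4 were higher and 4 lower in Y12-3, against 5.08% and 3.4% of all tested. With same-numbered arrays of the genotypes as pairs, a fit added after seeing the data, it called 25 of 89 (28.09%). Of these, 16 were higher and 9 lower in Y12-3, and that fit called 8.74% of all tested. The less variable watered arrays enter the estimate of spread in both fits. In the 6 stressed arrays alone, without the watered arrays, limma called 5, of which 2 were lower and 3 higher in Y12-3. At an unadjusted p under 0.05, 16 members (18%) passed, against 24.7% of all tested. Of the members, 65 had a higher and 24 a lower mean in stressed Y12-3 than in stressed A24-39, with a median difference of 0.11 (all tested: -0.02). The 2 stressed means were under 0.2 apart for 43 members and 1 or more apart for 3. The 3 stressed Y12-3 arrays were all above the 3 stressed A24-39 arrays for 3 members (15% of all tested), and all below them for 4 (23.3% of all tested). A sequence difference under the probes and a difference in transcript level cannot be told apart between genotypes.

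The largest difference upward was that of Ta.23812.1.S1_a_at, which scored 2.68, 2.18 and 2.85 in stressed Y12-3, against 0.94, 0.65 and 1.78 in stressed A24-39. It was higher in Y12-3 by 1.45 ± 0.25 (SE; limma adjusted p = 0.00483), with no overlap of the arrays. The watered arrays, which vary less, enter this SE, and in the 6 stressed arrays alone the limma adjusted p was 0.0347. TaAffx.129494.1.S1_at scored 1.71, 1.51 and 1.78, against 1.05, 0.82 and 1.16, and differed by 0.66 ± 0.13 (SE; limma adjusted p = 0.0113). TaAffx.37165.1.S1_at scored 1.66, 1.43 and 1.65, against 1.14, 0.96 and 1.26, and differed by 0.46 ± 0.08 (SE; limma adjusted p = 0.00481). Ta.18239.2.S1_a_at scored 3.92, 3.46 and 3.86, against 3.14, 2.90 and 3.52, and differed by 0.56 ± 0.15 (SE; limma adjusted p = 0.0444). The last of these overlapped between genotypes, the other 3 did not. In the 6 stressed arrays alone, the limma adjusted p was 0.0122 for TaAffx.129494.1.S1_at and 0.0296 for TaAffx.37165.1.S1_at. For Ta.18239.2.S1_a_at the limma adjusted p there was 0.105, so its call was lost. Probe sets of its design cluster differed in order. The member Ta.18239.2.S1_x_at also had the higher mean in stressed Y12-3 (2.16, against 1.86 in stressed A24-39). Ta.18239.1.S1_at, which is not a member, had the lower mean in stressed Y12-3 (4.37, against 4.60).

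The largest difference downward was that of Ta.13396.1.S1_at, which scored 2.29, 2.09 and 3.00 in stressed Y12-3, against 3.77, 3.35 and 4.24 in stressed A24-39. It was lower in Y12-3, by -1.32 ± 0.24 (SE; limma adjusted p = 0.0062). Other probe sets of the same design cluster ran the other way, as given below. Ta.4826.2.S1_at scored 2.98, 2.80 and 3.25, against 3.56, 3.40 and 4.04, and differed by -0.66 ± 0.15 (SE; limma adjusted p = 0.0214). Ta.26144.1.A1_s_at scored 1.35, 1.45 and 1.05, against 2.14, 1.94 and 1.67, and differed by -0.64 ± 0.14 (SE; limma adjusted p = 0.0201). Ta.13255.1.S1_at of LOC542888, given above, was the last of the 4. In each of these 4, every stressed A24-39 array was above every stressed Y12-3 array. In the 6 stressed arrays alone, the limma adjusted p was 0.0398 for Ta.13396.1.S1_at and 0.0409 for Ta.26144.1.A1_s_at, and the calls of Ta.4826.2.S1_at (0.0729) and Ta.13255.1.S1_at (0.0799) were lost.

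Same-numbered arrays of the genotypes deviated from their group means together within a watering regime, so the arrays may be read as pairs. The labels do not give these pairs, which were read from the same values. In stressed roots, Y12-3 array 1 went with A24-39 array 3 as much as with A24-39 array 1 (correlations of 0.175 and 0.17). The 25 members called with the pairs as a block include all 8 called without the pairs. The watered arrays, which vary less, enter the SE of that fit too, and the stressed pairs were not fitted alone. In that fit the member probe set of LOC542799 was lower in Y12-3, by -0.62 ± 0.09 (SE, limma adjusted p = 0.00628). Its stressed pairs differed by -0.403, -0.741 and -0.712. The member probe set of LOC543293 was higher, by 0.57 ± 0.08 (SE, limma adjusted p = 0.00633), with stressed pairs at 0.588, 0.802 and 0.326. That gene's other probe sets, which are not members, had lower means in stressed Y12-3 (4.048 and 4.242) than in stressed A24-39 (4.816 and 4.935). The call of LOC543293 thus belongs to the member probe set and is not read for the gene. Over the 3 pairs, 22 members were higher in Y12-3 each time, 10 were lower each time and 57 were mixed. Of all tested probe sets, 23.28% were higher and 35.56% lower in all 3 pairs. The count called depended on single arrays: without the pairs it was 5 without the first or the third stressed Y12-3 array or the first stressed A24-39 array, and 13 (10 higher, 3 lower) without the third stressed A24-39 array. It was 14 (10 higher, 4 lower) after the spike-in rescaling and 11 (8 higher, 3 lower) after quantile normalization. The share of all tested probe sets called is not given for these fits, so nothing is read from these counts. The spike-in rescaling also moved the median stressed Y12-3 minus A24-39 difference of all tested probe sets from -0.024 to 0.072.

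Ta.23812.1.S1_a_at, TaAffx.37165.1.S1_at and Ta.13396.1.S1_at kept their call in all 20 alternatives. Calls were lost in 10 of 20 for Ta.18239.2.S1_a_at, 8 for Ta.13255.1.S1_at, 3 each for Ta.4826.2.S1_at and Ta.26144.1.A1_s_at, and 1 for TaAffx.129494.1.S1_at. None of the 8 changed direction. After quantile normalization the difference of Ta.13255.1.S1_at was -0.17 (limma adjusted p = 0.351).

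The size of the response was compared directly by the interaction, the Y12-3 difference minus the A24-39 difference. The rule held all 4 group means and so left out probe sets that responded in 1 genotype only, and nothing is read from the members' counts against all tested. limma called 0 of 89 members (0.0851% of all tested), and at an unadjusted p under 0.05 it passed 11 members (12.4%; 7 higher and 4 lower in Y12-3), against 8.34% of all tested. The interaction of the members ran from -1.33 to 1.47 with a median of 0.11. Because the watered means are background, its size is not exact. The smallest p-values belonged to TaAffx.37165.1.S1_at (0.50 ± 0.11), Ta.23812.1.S1_a_at (1.47 ± 0.35) and Ta.13396.1.S1_at (-1.33 ± 0.33; SE; limma adjusted p = 0.192, 0.23 and 0.271 in that order). With the pairs as a block, limma called 5 members (3 higher, 2 lower), against 0.25% of all tested, and without the third stressed A24-39 array it called 1.

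A test of the stress response itself needs arrays that did not choose the probe sets, so each genotype was used in turn to choose and the other to test. By the same thresholds, the 6 Y12-3 arrays alone chose 139 probe sets, of which 64% are members. In the 6 A24-39 arrays, limma called 128 of these 139 (92.1%) higher under stress, against 3.9% of all tested, and 11 were not called. All 139 had a higher stressed than watered mean in A24-39, by a median of 1.999 (range 0.31 to 5.12). The stressed A24-39 mean reached 1 for 104 of them, of which 15 were kept from membership by a watered A24-39 mean above the threshold.

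The 6 A24-39 arrays alone chose 110 probe sets, of which 80.9% are members. In the 6 Y12-3 arrays, limma called 109 of these 110 (99.1%) higher under stress, against 9.56% of all tested. Their median difference in Y12-3 was 2.79 (range 0.43 to 5.19). Transcripts chosen in either genotype were thus also called higher in the other, at a share far above the background. Of the A24-39 list, the single exception was Ta.6081.1.S1_a_at, at 3.69 in stressed A24-39 and -0.37 in well-watered A24-39, against -0.22 in stressed Y12-3 and -0.65 in well-watered Y12-3. Its Y12-3 difference was 0.43 ± 0.14 (SE; limma adjusted p = 0.0994), with both Y12-3 means at background. The genotypes are separate arrays, but their same-numbered arrays deviate together, so the 2 tests are not fully independent of the choice.

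Probe sets whose names share a number (Ta.4826.1, Ta.4826.2) come from 1 design cluster of similar transcripts and can detect the same or closely related transcripts. The 89 members fell in 71 clusters. Of these, 59 held 1 member, 7 held 2, 4 held 3 and 1 held 4. Thus 30 of the members share their cluster with another member and are not independent measurements. Members of different clusters need not be independent either: the 2 member probe sets of LOC542888 lie in clusters Ta.13255 and Ta.2787.

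Most other probe sets of the members' clusters also had more signal under stress. Of the 28 probe sets that share a cluster with a member and are not members, limma called 22 (78.6%) higher under stress in both genotypes, against 4.32% of all tested (11.1% in Y12-3 and 5.35% in A24-39 taken singly). The 28 were reached through members chosen on these same arrays, and they can detect the same transcripts as the members. A high share is thus partly given by the choice and is no independent support. The median difference over all 28 was 0.88 in Y12-3 and 1.03 in A24-39. Of the 28, 16 had a watered mean at or above the threshold of -0.15. Ta.18239.1.S1_at, at 4.37 in stressed Y12-3, 0.17 in well-watered Y12-3, 4.60 in stressed A24-39 and 0.07 in well-watered A24-39, was such a case.

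The 6 that limma did not call in both were of 3 kinds. Ta.13396.3.S1_at, Ta.9389.3.S1_at and TaAffx.129494.3.S1_at had all 4 means at background. Ta.20582.3.S1_a_at (2.97 in stressed and 2.60 in well-watered Y12-3, 3.47 in stressed and 3.05 in well-watered A24-39) and Ta.12787.2.S1_a_at (1.14, 1.15, 0.94 and 0.97 in the same order) had signal under both waterings. Ta.6219.1.S1_at had signal in A24-39 under both waterings (0.65 stressed, 0.48 well-watered) and none above background in Y12-3 (-0.22 stressed, -0.24 well-watered).

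Within the 5 clusters with most members, levels differed between probe sets of 1 cluster. Cluster Ta.4826 held 4 members: Ta.4826.1.S1_at had 1.43 in stressed Y12-3 and 1.30 in stressed A24-39, and Ta.4826.3.S1_x_at had 3.81 in stressed Y12-3 and 3.82 in stressed A24-39. Ta.4826.3.S1_at (3.33 and 3.22) had similar means in the genotypes, while Ta.4826.2.S1_at (3.01 and 3.67) was among those called lower in Y12-3. In cluster Ta.13396, Ta.13396.1.S1_at was lower in stressed Y12-3 (2.46) than in stressed A24-39 (3.79). Its companions Ta.13396.2.S1_at (3.38 and 3.01) and Ta.13396.2.S1_x_at (3.49 and 3.22) had higher means in Y12-3, neither past the threshold.

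Clusters Ta.20582, Ta.5888 and Ta.9389 held 3 members each. In Ta.20582, Ta.20582.1.S1_a_at had 3.67 in stressed Y12-3 and 3.76 in stressed A24-39, close to Ta.20582.1.S1_x_at (3.74 and 3.92), while Ta.20582.2.S1_x_at was dimmer (2.13 and 2.11). In Ta.5888, Ta.5888.1.S1_s_at had 3.96 in stressed Y12-3 and 3.86 in stressed A24-39, and Ta.5888.2.S1_at (2.90 and 2.79) and Ta.5888.2.S1_x_at (3.30 and 3.26) were lower. In Ta.9389, the bright Ta.9389.1.S1_at and Ta.9389.1.S1_x_at stood beside Ta.9389.2.S1_at, at 1.99 ± 0.81 in stressed Y12-3 and 1.97 ± 0.69 in stressed A24-39 (SD, n = 3 each). In all 3 clusters both genotypes gave the same order of probe sets. Levels of different probe sets depend on their probes as well as on the transcript.

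The members' names tell something of their design. Of the 89, 82 (92.1%) carry the prefix Ta and 7 (7.87%) the prefix TaAffx, against 51.4% and 48.6% of all tested. Names with the part S1 made up 86.5% of members and 82.6% of all tested. Some suffixes mark probes shared by several transcripts. Among members, 14 were x_at (15.7%, against 11.1% of all tested), 9 were a_at (10.1%, against 5.43%) and 5 were s_at (5.62%, against 4.28%). Some of these members share a cluster. All these shares are descriptions and were not tested, and nothing is read from them.

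Lists of known drought genes could hardly be followed, since few symbols matched. Of 13 symbols for dehydrins and other late embryogenesis abundant proteins, 1 matched, COR410, whose probe set was called higher in both genotypes and is not a member. The 2 probe sets of CAT1, catalase, were not called and were at background in all groups. Of 3 probe sets of TUBA, alpha-tubulin, and XTH, a cell wall enzyme, 1 was called lower in Y12-3 and 1 in A24-39 on the values as deposited. Lists for abscisic acid, osmolytes, transcription factors and protein protection matched 0 probe sets, and 0 members were in any list.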

How the data were processed

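Root RNA of 4 groups of 3 arrays was compared. The deposited values are a score per probe set and array; per the submitters' processing notes RMA, a background correction and normalization method for arrays, was used, in an unstated version. Neither the base nor the centring of the score is given. The fixed plan assumed log-like values, and the scores were used as deposited, with no transformation. The 175 control probe sets of 61290 were left out. Tests were limma 3.58.1 in R 4.3.3 (lmFit, eBayes), with Benjamini-Hochberg adjustment over 61115 probe sets and a threshold of 0.05. The main fit had 4 group means and 8 residual degrees of freedom. Where a list chosen in a single genotype was tested in the other, the fit had 4 residual degrees of freedom. Other fits on fewer arrays also had fewer than 8, and the number for fits with blocks is not given. The tests were also run on simulated data with independent noise on every array, which says nothing about arrays that deviate together. P-values set a difference of means against the spread between arrays, which limma estimates with help from all probe sets. In the main fit this spread is pooled over the stressed and the watered arrays, which vary less for the members. The number of arrays limits the precision. The members and lists were chosen with earlier results of these data known.

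Named probe sets are the members with 1 symbol, the 10 brightest and 5 dimmest under stress, those called between genotypes or with the 3 smallest interaction p-values, the 3 nearest to each side of a threshold, and the members of the 5 clusters with most members. Same-numbered arrays of the genotypes deviated together (correlations of 0.17, 0.575 and 0.536 in stressed and 0.244, 0.278 and 0.197 in watered roots, all over 0.1), so the numbers were read as pairs within a watering regime. Differently numbered arrays of the genotypes had correlations of -0.51 to 0.175 in stressed and -0.189 to -0.017 in watered roots, so number 1 was not singled out in stressed roots. Between waterings the correlations of same-numbered arrays of a genotype were -0.104 to 0.126. Alternatives were leaving out each array, quantile normalization, a variance trend, array weights, a filter on dim probe sets, blocks, other thresholds and, added after seeing the data, spike-in rescaling and the pairs within watering. Python 3.11.15 wrote the name tables.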

Additional observations from a re-analysis of the deposited data

Results flagged for a closer look

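With same-numbered arrays of the genotypes as pairs, 5 members passed the interaction test, against 0.25% of all tested probe sets. The rule shaped the members' counts, so nothing is read from this comparison. The test compares the stress responses of the 2 genotypes directly. These pairs are not in the labels and were read from how the same arrays deviated, so the fit is not a planned paired design. The 5 members were chosen after their values were seen. None of them passed in the main fit, without the pairs. The Y12-3 minus A24-39 response was 1.466 ± 0.155 for Ta.23812.1.S1_a_at, 0.646 ± 0.068 for TaAffx.129494.1.S1_at and 0.504 ± 0.062 for TaAffx.37165.1.S1_at (SE; limma adjusted p = 0.0309, 0.0309 and 0.0403). It was -1.325 ± 0.079 for Ta.13396.1.S1_at and -0.631 ± 0.079 for Ta.4826.2.S1_at (SE, limma adjusted p = 0.00492 and 0.043). Members of the same design clusters did not share these values in that fit. Ta.13396.2.S1_at had 0.251 and Ta.13396.2.S1_x_at had 0.203, while Ta.4826.1.S1_at had 0.053, Ta.4826.3.S1_at 0.11 and Ta.4826.3.S1_x_at -0.055. None of these passed the threshold. For Ta.23812.1.S1_a_at, TaAffx.129494.1.S1_at and TaAffx.37165.1.S1_at, the stressed Y12-3 array was above its stressed A24-39 pair 3 times of 3. For Ta.13396.1.S1_at and Ta.4826.2.S1_at it was below that pair 3 times of 3. The fit that called the 5 members used these same differences, so their order adds no support. Of all tested probe sets, 23.28% were higher and 35.56% lower in stressed Y12-3 in all 3 pairs. The watered means of all 5 were at background, so these sizes are not exact.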

How the results depend on the processing

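The number of members was 59 when every single array had to pass the thresholds and 146 with a stressed minimum of 0.5, and it ran from 81 to 97 when 1 array was left out. Other thresholds, medians, quantile normalization and spike-in rescaling gave 65 to 115. For stressed Y12-3 minus stressed A24-39, limma called 5 members in the 6 stressed arrays alone, 14 after spike-in rescaling and 25 with the replicate block within watering, and 5 to 13 when 1 array was left out. The replicate number as a block over all groups gave 10. For the interaction it called 1 member with array weights, 2 after spike-in rescaling, 5 with the replicate block within watering, 0 with the block over all groups, and 0 to 1 when 1 array was left out. Except for the block within watering, the share of all tested probe sets called is not given for these alternatives, and nothing is read from their counts. When 1 array was left out, the lists chosen in 1 genotype were chosen anew and could change in size. The counts called higher in A24-39 ran from 112 of 139 to 139 of 155 probe sets chosen in Y12-3. The counts called higher in Y12-3 ran from 102 of 110 to 122 of 123 probe sets chosen in A24-39. All other alternatives stayed within 1.5 times of the counts given. Of 160 combinations of a called member and an alternative, 135 kept the call, 25 lost it and 0 reversed. Spike-in rescaling moved the median stress difference of all probe sets to 0.101 in Y12-3 and 0.025 in A24-39, and that between stressed genotypes to 0.072. The block over all groups changed no other call by over 1.5 times. The causes of these differences were not tested. With 3 arrays a group, signal at background in watered roots limits every stress difference of a member to a lower bound.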

Other observations

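Of the 139 probe sets chosen in Y12-3 alone, 11 were not called higher in A24-39, and none of them has a symbol. Their stressed A24-39 means were -0.23 to 1.01. Ta.14251.1.S1_at scored 1.48 in stressed against -0.58 in well-watered Y12-3, while A24-39 had 0.16 in stressed and -0.54 in well-watered roots, a difference of 0.70 ± 0.19 in A24-39 (SE; limma adjusted p = 0.0853). Ta.26997.1.S1_at scored 1.03 in stressed against -0.56 in well-watered Y12-3, against -0.23 in stressed and -0.54 in well-watered A24-39, where it was at background under both waterings. Ta.28378.1.S1_at and Ta.28378.1.S1_x_at, of 1 design cluster, had 1.14 and 1.05 in stressed Y12-3 and 0.17 and 0.12 in stressed A24-39. These probe sets were singled out after their values were seen. Ta.1360.1.S1_at, which shares a cluster with a member and is none itself, had 0.38 in stressed Y12-3 and 1.48 in stressed A24-39, with watered means of -0.36 in Y12-3 and -0.53 in A24-39.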
